A study of Mus musculus with 8 samples.

Results

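The proteasome is the large protease that degrades proteins tagged with ubiquitin. Its 20S core is a barrel of alpha rings, which gate the entrance, and beta rings, which hold the catalytic sites. The 19S cap recognizes ubiquitin chains, and its ring of ATPases unfolds the substrate and feeds it into the core. Alternative caps (the activators) and alternative catalytic subunits, induced by interferon in immune cells, replace parts of this standard particle. In neurons the proteasome is known for the turnover of synaptic and signaling proteins.

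Genes whose symbol begins with Psm, a letter from a to g and a number were taken as the family, which gave 49 of the 18939 genes in the table. They were the 7 genes of the 20S alpha ring (Psma1 to Psma7), the testis alpha subunit Psma8, the 7 genes of the standard beta ring (Psmb1 to Psmb7), the inducible beta subunits Psmb8, Psmb9 and Psmb10, the thymus subunit Psmb11, the 6 ATPases of the 19S base (Psmc1 to Psmc6), 11 other 19S subunits of the Psmd group, 7 assembly chaperones (Psmd5, Psmd9, Psmd10 and Psmg1 to Psmg4), the 4 activator genes Psme1 to Psme4, the inhibitor gene Psmf1, and Psmc3ip. The last matches the letters only, since its product is a recombination factor of meiosis. The alpha ring, the standard beta ring, the ATPases and the other 19S subunits are called the 31 constitutive subunits here.

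RNA bound to tagged ribosomes was purified (translating ribosome affinity purification, TRAP-Seq) from gross dissections of the paraventricular nucleus of the thalamus (PVT) of OPRM1cre X EGFP-L10a mice, in which Cre made from the mu-opioid receptor locus (Oprm1) turns on the ribosomal protein L10a fused to EGFP. All mice carried both alleles on a C57Bl/6J background, and were 8 to 12 weeks old at the start. Mice of the morphine group drank morphine in 0.2% saccharin over 11 days, at a concentration raised over time to 0.5 mg/ml, and control mice drank 0.2% saccharin. Each group had 4 libraries, 2 labelled male (control replicates 1 and 2, morphine replicates 3 and 4) and 2 labelled female (control replicates 5 and 6, morphine replicates 7 and 8), and each library is described as a pool of 2 mice of 1 sex, which is uncertain for control replicate 5. Any cell in the dissection that used the Oprm1 locus at some time in its life can carry the tag. Because these are bulk samples, fewer cells of a type and less RNA per cell cannot be told apart.

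Total counts lay between 31151103 and 47582947 per library, of which the family held between 0.311% and 0.367%. All 8 listed markers of thalamic neurons were measured, and their summed level was 2330 to 2840 CPM (counts scaled to library size) in control and 1720 to 2990 CPM in morphine libraries. Summed markers of telencephalic pyramidal neurons were 232 to 526 CPM in control and 447 to 986 CPM in morphine libraries, those of the choroid plexus were 35.9 to 107 CPM and 127 to 396 CPM, and those of oligodendrocytes were 121 to 1220 CPM and 566 to 1520 CPM. In log2 fold change 0 of 8 thalamic markers were above 0 (median -0.24), as against 9 of 9 telencephalic (1.13), 11 of 12 choroid plexus (1.99) and 8 of 8 oligodendrocyte markers (0.65), and edgeR called 1 of them, a telencephalic marker. Oprm1 itself was at 25.3 ± 6.92 CPM in control and 16.5 ± 1.95 CPM in morphine libraries (SD, n = 4 each), a log2 fold change of -0.62 that did not pass the test (edgeR, adjusted P = 0.207). Control replicate 5 is labelled female, but the Y-linked genes Ddx3y, Uty, Kdm5d and Eif2s3y stood there at 28.7% to 35.8% of their mean in the male libraries, while the other female libraries held at most 2 counts of any of them.

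The promoters of the 6 genes below are shown because the results turn on them: Psme4 encodes the activator PA200, the family member whose groups did not overlap, and Psmb5, Psmb6, Psmb8, Psmb9 and Psmb10 encode standard catalytic subunits and the inducible ones. Each run is 300 bases from RefSeq on GRCm38.p6, from 250 bases before the start of transcription to 50 after it, printed 5′ to 3′ on the gene's strand. Capitals mark matches, on either strand, to the antioxidant response letters TGACNNNGC or TGAGNNNGC, or to CCAAT.
Psme4, chr11:30771525-30771824, plus strand: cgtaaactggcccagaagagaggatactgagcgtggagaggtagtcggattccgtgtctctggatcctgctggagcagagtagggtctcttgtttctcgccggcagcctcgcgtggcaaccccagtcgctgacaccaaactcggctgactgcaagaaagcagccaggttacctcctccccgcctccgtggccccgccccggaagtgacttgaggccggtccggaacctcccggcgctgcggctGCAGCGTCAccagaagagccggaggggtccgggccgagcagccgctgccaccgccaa
Psmb5, chr14:54617946-54618245, minus strand: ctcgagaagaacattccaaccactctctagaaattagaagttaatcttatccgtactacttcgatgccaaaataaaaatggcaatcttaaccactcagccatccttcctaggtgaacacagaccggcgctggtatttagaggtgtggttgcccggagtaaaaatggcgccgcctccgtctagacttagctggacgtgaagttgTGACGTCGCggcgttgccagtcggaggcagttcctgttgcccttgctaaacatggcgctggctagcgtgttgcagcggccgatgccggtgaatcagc
Psmb6, chr11:70525107-70525406, plus strand: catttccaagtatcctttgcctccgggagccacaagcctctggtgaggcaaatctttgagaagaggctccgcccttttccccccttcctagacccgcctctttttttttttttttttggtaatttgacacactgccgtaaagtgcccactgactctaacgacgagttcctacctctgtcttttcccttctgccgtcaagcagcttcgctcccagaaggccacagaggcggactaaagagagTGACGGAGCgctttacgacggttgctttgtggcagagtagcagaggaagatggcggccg
Psmb8, chr17:34197945-34198244, plus strand: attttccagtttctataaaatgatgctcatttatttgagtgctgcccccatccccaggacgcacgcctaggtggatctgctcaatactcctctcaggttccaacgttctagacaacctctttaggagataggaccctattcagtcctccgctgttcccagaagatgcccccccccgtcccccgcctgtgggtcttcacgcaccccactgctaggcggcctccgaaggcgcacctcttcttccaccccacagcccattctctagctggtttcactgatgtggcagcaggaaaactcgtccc
Psmb9, chr17:34187281-34187580, minus strand: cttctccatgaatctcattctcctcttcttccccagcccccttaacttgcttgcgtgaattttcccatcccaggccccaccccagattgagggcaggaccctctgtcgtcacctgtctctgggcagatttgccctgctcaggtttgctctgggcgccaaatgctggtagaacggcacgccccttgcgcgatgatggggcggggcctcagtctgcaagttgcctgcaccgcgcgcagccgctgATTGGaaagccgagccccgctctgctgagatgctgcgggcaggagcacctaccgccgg
Psmb10, chr8:105938343-105938642, minus strand: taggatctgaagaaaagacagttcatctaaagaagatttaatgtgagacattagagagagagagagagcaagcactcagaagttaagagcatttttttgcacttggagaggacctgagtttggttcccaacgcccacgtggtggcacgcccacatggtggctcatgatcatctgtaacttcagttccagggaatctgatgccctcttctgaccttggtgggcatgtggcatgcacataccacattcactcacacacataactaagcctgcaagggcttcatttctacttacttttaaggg

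Psme4, Psmb5 and Psmb6 each held 1 match to the antioxidant response letters, Psmb9 held 1 CCAAT, and Psmb8 and Psmb10 held neither. Promoter windows were found for 41 of the 49 genes (44 windows), and Psma8, Psmb1, Psmb2, Psmb7, Psmc3, Psmd3, Psmd7 and Psmg2 had none. Among the 25 constitutive subunits with a window, 12 held either form of the antioxidant response letters. These were 13 of their 27 windows (48.1%), against 27.8% of all 32851 windows of the same length. By form, TGACNNNGC, the one marked in Psme4, Psmb5 and Psmb6, was in 14.8% of the constitutive windows and 12.4% of all, and TGAGNNNGC in 40.7% and 17.6%. The CCAAT letters were in 37.0% of the constitutive windows and 37.4% of all windows. A match is a description of letters and not a binding site. The transcription factor genes of this route, which raise subunit transcription when the proteasome is inhibited, are described further on.

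The first question was at which levels the constitutive subunits stood in the purified RNA. All 31 were well measured, with 200 to 9809 counts per library. Per kilobase of transcript, the mean level in the control group went from 5.83 CPM per kb (Psma5, an alpha ring subunit) to 153 CPM per kb (Psmb6, the catalytic beta subunit of caspase-like activity), a 26.2-fold range. The ATPases lay closest together, from 45.8 (Psmc1) to 106 CPM per kb (Psmc5), a 2.31-fold range. The other 19S subunits went from 23.9 (Psmd11) to 93.2 CPM per kb (Psmd3, a scaffold subunit of the lid), a 3.9-fold range. The beta ring went from 19.1 (Psmb3) to 153 CPM per kb, and the alpha ring from 5.83 to 96.8 CPM per kb (Psma7).

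Some transcripts share sequence with other genes. In 15 family members at least 10% of all 50-base windows of the transcript occurred in another gene, as in Psmb5 (57.06%), Psmb3 (55.79%), Psma5 (55.38%) and Psma4 (31.54%), and 24 members had no such window. The 10 constitutive subunits with at least 10% shared windows had a median of 25.3 CPM per kb and a 17.3-fold range, up to Psmb7 (101 CPM per kb, 28.08% shared), and the other 21 had a median of 70.9 CPM per kb and a 4.66-fold range, from Psma2 to Psmb6. The part of shared sequence in these levels was not tested. Transcript lengths were those of GENCODE, so a level also depends on which transcript was counted.

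**Figure D1:**
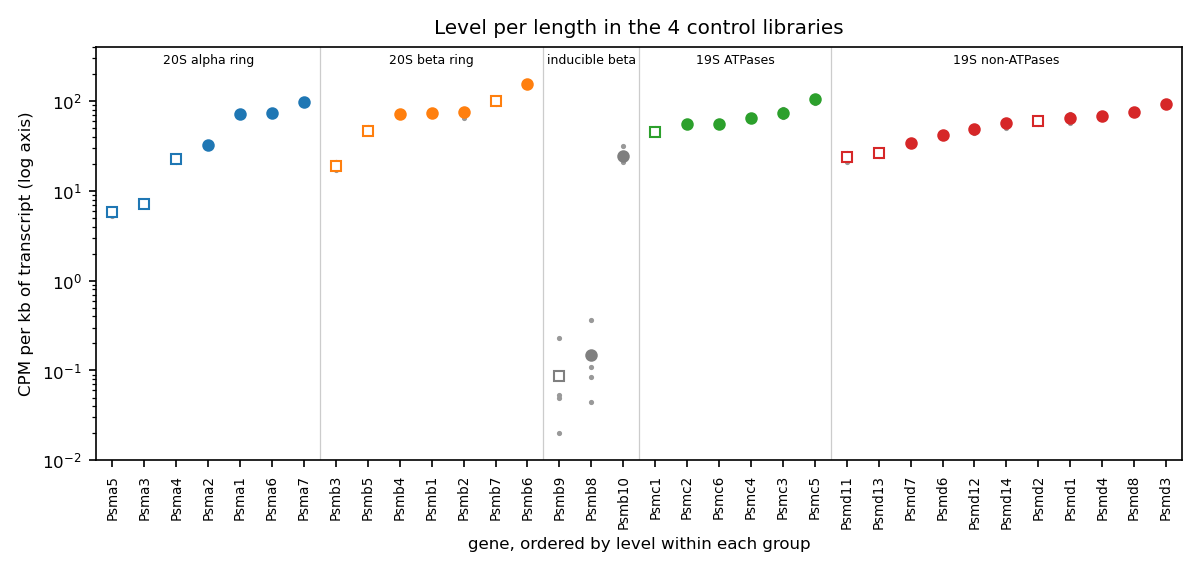
Level in the 4 control libraries of the 31 constitutive subunits and the 3 inducible beta subunits, in CPM per kilobase of transcript on a log axis. Large symbols are means, small points are libraries, colours are roles, and open squares are genes with at least 10% shared windows. The means of the constitutive subunits span 5.83 to 153 CPM per kb, and Psmb8 and Psmb9 lie far below them.

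When morphine libraries were compared to control libraries, none of the constitutive subunits passed the test. Their log2 fold changes lay between -0.10 (Psmd2, a scaffold of the 19S base) and 0.19 (Psmd7, a lid subunit), with a median of 0.019 and 19 of 31 above 0. All 31 of the 95% confidence intervals lay between -0.324 and 0.404, in the model with condition alone. These limits depend on the model: with the telencephalic score added, itself higher in the morphine group, Psmd7 was at 0.40 ± 0.144 (SE). A background of 13703 genes, each with 10 counts or more in all 8 libraries, had a median of 0.001. The middle 50% of log2 fold changes spanned 0.112 in the constitutive subunits and 0.290 in those genes, whose median standard error was larger (0.138 against 0.097).

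In the whole family, 0 of 49 genes passed the test (edgeR quasi-likelihood, adjusted P under 0.05), where 0.195% of all genes did. At an unadjusted P under 0.05 there were 2 genes, Psme4 and Psma8 (4.08%), against 12.1% of all genes. DESeq2 called 1 member, Psme4, where it called 3.29% of the genes it gave an adjusted P. The 4 morphine libraries were all above the 4 control libraries in 1 of 49 genes, again Psme4 (2.04%). Groups that did not overlap in either direction made up 6.54% of all genes, and 3.34% had morphine above. These shares were at or below those of all genes.

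**Figure D2:**
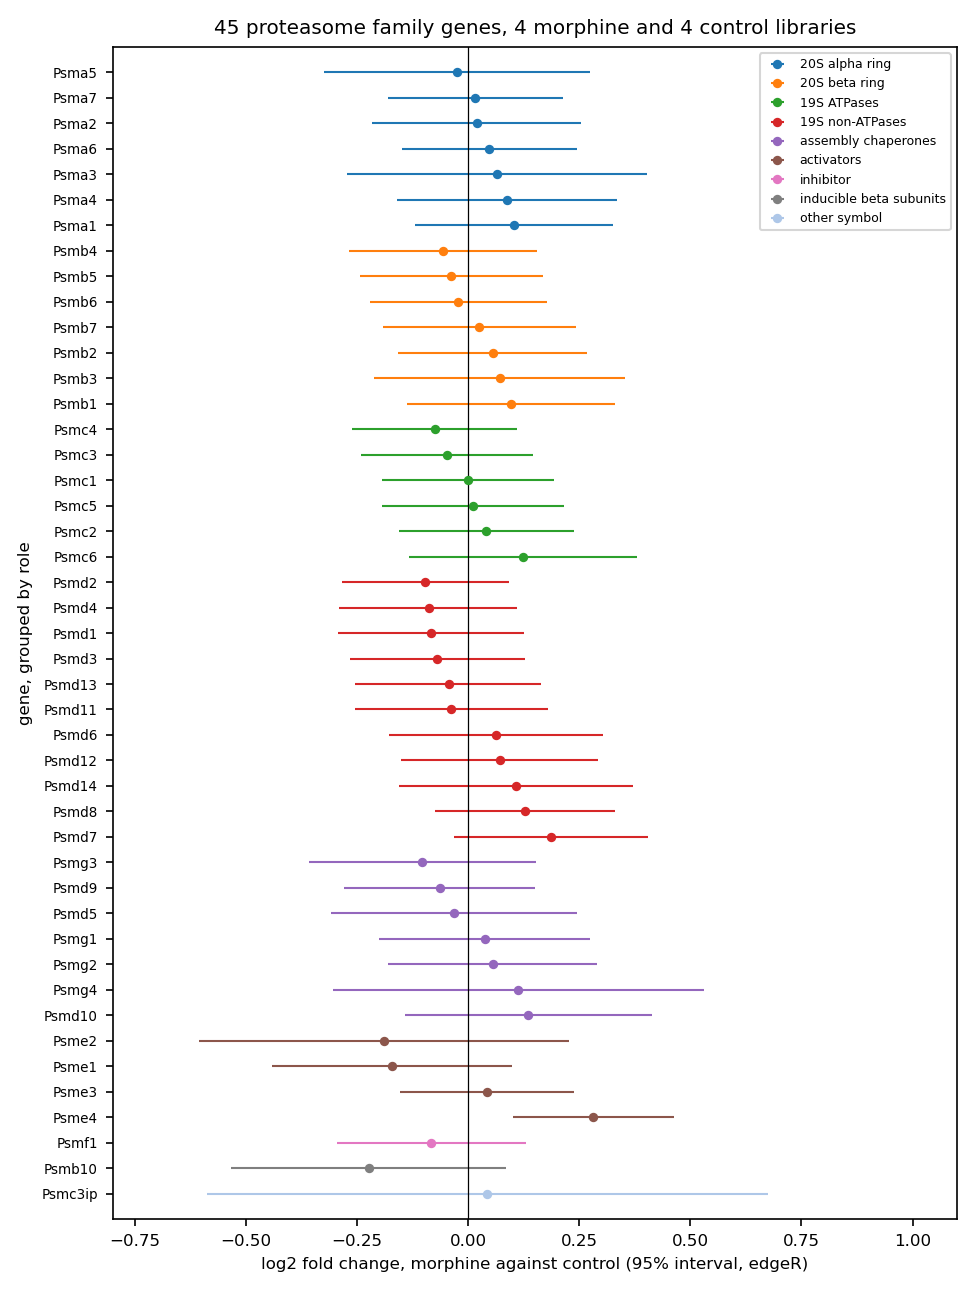
Log2 fold change, morphine against control, with its 95% interval (edgeR) for the 45 family members that had 10 counts or more in all libraries, grouped by role. Psma8, Psmb8, Psmb9 and Psmb11 are left out because of low counts. The interval of Psme4 alone among the genes plotted lies wholly on one side of 0, from 0.101 to 0.464.

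By role, 6 of the 7 alpha ring genes were above 0 (median log2 fold change 0.048), as were 4 of 7 beta ring genes (0.025), 4 of 6 ATPases (0.006), 5 of 11 other 19S subunits (-0.038) and 4 of 7 assembly chaperones (0.037). The chaperones lay between -0.10 and 0.14. The inhibitor gene Psmf1 was at -0.08 and Psmc3ip at 0.04. None of these passed the test.

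Among the 19S subunits, Psmd7 stood at 53.1, 58.1, 56.3 and 49.9 CPM in the control libraries and 71.1, 59.9, 56.1 and 60.3 CPM in the morphine libraries. Morphine replicate 3 was the highest, and the groups overlapped (log2 fold change 0.19 ± 0.099 SE, edgeR adjusted P = 0.497). Psmd8, another lid subunit, stood at 113, 118, 121 and 107 CPM in control and 137, 111, 127 and 127 CPM in morphine libraries (0.13 ± 0.092, edgeR adjusted P = 0.622). Psmd2 stood at 187, 168, 178 and 184 CPM in control and 179, 171, 164 and 157 CPM in morphine libraries, which overlapped (-0.10 ± 0.085, edgeR adjusted P = 0.677). The ATPase gene Psmc6 ranged most in the morphine group, with 161, 109, 135 and 142 CPM against 124, 118, 134 and 125 CPM in control (0.12 ± 0.117, edgeR adjusted P = 0.677). The base chaperone gene Psmd10 (gankyrin) stood at 15.2, 15.7, 14 and 14.3 CPM in control and 20.1, 14.7, 14.6 and 15.6 CPM in morphine libraries (0.14 ± 0.127, edgeR adjusted P = 0.677). In Psmd7, Psmd8, Psmc6 and Psmd10 the highest value was that of morphine replicate 3. Without it their log2 fold changes were 0.11, 0.08, 0.035 and 0.017. They were 0.40, 0.30, 0.28 and 0.35 with the telencephalic score in the model, and 0.29, 0.24, 0.22 and 0.25 with the choroid plexus score. None passed the test in either (edgeR, lowest adjusted P = 0.652). Both scores (mean log2 CPM of the markers) were higher in the morphine group, by 1.69 and 1.81. Such fits separate score and condition poorly, and the SE of Psmd7 rose from 0.099 to 0.144 and 0.177.

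None of the standard catalytic subunits passed the test, and their log2 fold changes were near 0. Psmb5, of chymotrypsin-like activity, stood at 46.3, 40.2, 39.8 and 40.4 CPM in control and 44.4, 39.0, 40.3 and 38.6 CPM in morphine libraries (log2 fold change -0.04, 95% interval -0.244 to 0.168). Psmb6 stood at 125, 128, 123 and 113 CPM in control and 119, 108, 122 and 132 CPM in morphine libraries (-0.02, -0.221 to 0.178). Psmb7, of trypsin-like activity, stood at 121, 121, 119 and 108 CPM in control and 136, 109, 108 and 124 CPM in morphine libraries (0.03, -0.192 to 0.243). The groups overlapped in all of the 3 genes.

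Of the activator genes, Psme4 was higher in the morphine group without overlap. PA200, its product, is a single-chain cap of the 20S core known for acetylated histones and for sperm development. Psme4 lies at chr11:30771775-30881150 (GRCm38.p6), and stood at 54.4, 51.9, 59.2 and 53.5 CPM in the control libraries and 67.7, 65.8, 68.7 and 64.1 CPM in the morphine libraries. Every morphine library was above every control library. The log2 fold change was 0.28 ± 0.083 (SE, 95% interval 0.101 to 0.464), with an unadjusted P of 0.00561 and an adjusted P of 0.198 by edgeR, which did not pass, and an adjusted P of 0.0336 by DESeq2, which did. The exact permutation test gave P = 0.0286, the smallest it can give with 4 against 4. Any gene whose groups do not overlap gets this value, so it restates the lack of overlap. Left-out libraries moved the log2 fold change between 0.248 and 0.307, and it was 0.33 in male and 0.24 in female libraries. Adding the choroid plexus score to the model gave 0.36 ± 0.149, and adding the telencephalic score gave 0.31 ± 0.14 (edgeR adjusted P 1.0 and 0.672). The span of Psme4 overlaps that of Erlec1 by 18357 bases, with 0 exonic bases in common, and Erlec1 had a log2 fold change of 0.40 ± 0.177 with overlapping groups (edgeR adjusted P = 0.398).

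The groups overlapped in the other activator genes. Psme1 and Psme2 encode the PA28 alpha and beta subunits, an interferon-induced cap. Psme1 stood at 45.5, 45, 37.4 and 35.8 CPM in control and 39.1, 31.5, 33.4 and 41.4 CPM in morphine libraries (log2 fold change -0.17 ± 0.123, edgeR adjusted P = 0.619). Psme2 stood at 2.74, 2.68, 2.32 and 1.95 CPM in control and 2.25, 1.82, 2.11 and 2.32 CPM in morphine libraries (-0.19 ± 0.19, edgeR adjusted P = 0.694), and 62.06% of its windows were shared with another gene. Psme3, the nuclear PA28 gamma, stood at 173, 153, 180 and 168 CPM in control and 182, 159, 181 and 172 CPM in morphine libraries (0.04 ± 0.09, edgeR adjusted P = 0.878). A difference between the activators was not tested.

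**Figure D3:**
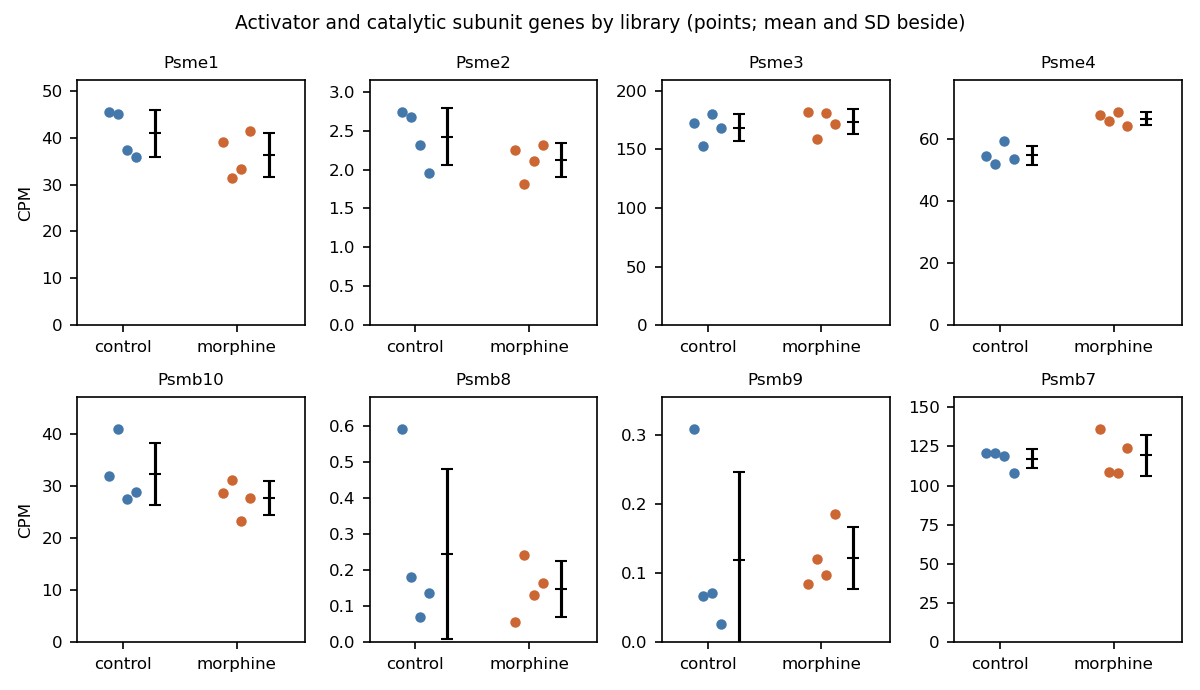
CPM of the 4 activator genes and of Psmb10, Psmb8, Psmb9 and Psmb7 in each library, with the mean and SD of the 4 libraries of a group beside the points; the lower SD bar of Psmb9 in the control group is cut at 0. In Psme4 all 4 morphine libraries (64.1 to 68.7 CPM) sit above all 4 control libraries (51.9 to 59.2 CPM), and in the other 7 genes the groups overlap.

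The inducible subunits, which replace the standard catalytic ones in the immunoproteasome, were unequal. Psmb10, the partner of Psmb7, stood at 32.0, 40.9, 27.5 and 28.9 CPM in control and 28.6, 31.1, 23.2 and 27.7 CPM in morphine libraries. The groups overlapped (log2 fold change -0.22 ± 0.141, edgeR adjusted P = 0.573). With a library left out the log2 fold change lay between -0.31 (without control replicate 5) and -0.09 (without control replicate 2, the highest library). Under the other alternatives it lay between -0.28 (choroid plexus score in the model) and -0.06 (telencephalic score). Control replicate 2 also had the highest sum of endothelial markers (11.6 CPM, against 3.56 to 6.86 CPM in the other libraries) and of microglia markers (17.7 CPM), but morphine replicate 8 had 16.2 CPM of the latter with Psmb10 at 27.7 CPM. Their part in the level of Psmb10 was not tested. Per length it was 24.4% ± 4.0 of Psmb7 in control and 20.7% ± 3.14 in morphine libraries (SD, n = 4 each, exact permutation P = 0.257).

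Psmb8 and Psmb9 were near the limit of detection. Psmb8, the partner of Psmb5, had 23, 8, 3 and 5 counts in control and 2, 8, 4 and 8 counts in morphine libraries, and per length was 0.0699% to 0.704% of Psmb5. Psmb9, the partner of Psmb6, had 12, 3, 3 and 1 counts in control and 3, 4, 3 and 9 counts in morphine libraries, and was 0.0142% to 0.145% of Psmb6. In both genes control replicate 1 was the highest of the 8 libraries. The thymus subunit gene Psmb11 had 2, 5, 0 and 9 counts in control and 5, 9, 2 and 8 counts in morphine libraries. No fold change is read from these 3 genes, since libraries of both groups were at 3 counts or fewer. Exons of Psmb9 overlap Tap1 and those of Psmb8 overlap an antisense gene, and whether strand was used in counting is not given in the sources used here. Summed microglia markers were 7.46 to 17.7 CPM in control and 8.15 to 16.2 CPM in morphine libraries, and those of the interferon response 46.9 to 63.5 CPM and 50.2 to 73.4 CPM. Their part in the levels of the inducible genes was not tested.

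Psma8, the testis alpha subunit, had 21, 14, 12 and 21 counts in control and 13, 6, 7 and 5 counts in morphine libraries. Its log2 fold change was -0.97 ± 0.436 with overlapping groups (edgeR unadjusted P = 0.0467, adjusted P = 0.404), and counting error is large at such counts.

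The constitutive subunits were also compared library by library. In each library the median deviation of the 31 constitutive subunits from their own mean was taken on the log2 scale. It was 0.05, -0.01, -0.005 and -0.06 in control replicates 1, 2, 5 and 6, and 0.18, -0.13, -0.02 and 0.01 in morphine replicates 3, 4, 7 and 8. Morphine replicate 3 was the highest of the 8 libraries in 19 of the 31 genes, and morphine replicate 4 the lowest in 14. Both are male libraries of the same group.

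The spread within the morphine group was larger as well. The SD of log2 CPM was larger in the morphine group than in the control group in 26 of 31 subunits (83.9%), against 46.4% of the 13703 genes, with a median SD of 0.130 in morphine and 0.082 in control libraries. Without morphine replicate 3 the median SD in the morphine group went from 0.130 to 0.105 in the subunits and from 0.185 to 0.145 in the 13703 genes, and without morphine replicate 4 it was 0.130 and 0.189. These genes share their libraries, so the counts describe these 8 libraries and are not independent. Morphine replicate 3 had the highest summed thalamic neuron markers (2990 CPM) and morphine replicate 4 the lowest (1720 CPM), and morphine replicate 4 had the highest telencephalic sum (986 CPM). The part of cell composition in the subunit levels was not tested.

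**Figure D4:**
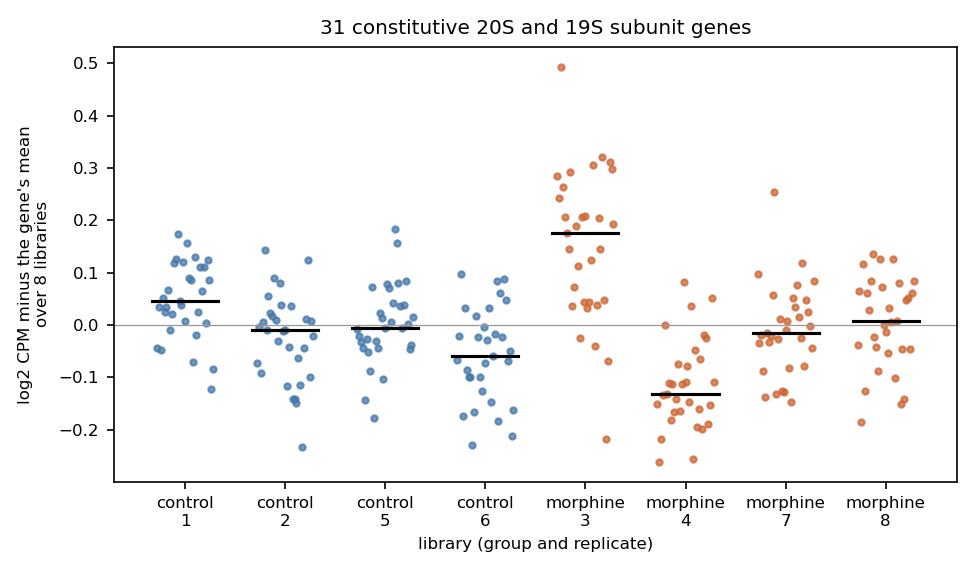
Level of the 31 constitutive subunits in each of the 8 libraries, as the log2 deviation of CPM from each gene's mean over libraries. Points are genes and bars are medians. Morphine replicate 3 has the highest median (0.176) and morphine replicate 4 the lowest (-0.132), and the control libraries lie between -0.057 and 0.048.

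The log2 fold changes of the subunits also went with base composition. Across the 31 constitutive genes Pearson's r with the GC content of the transcript was -0.531 (Spearman's rho -0.53), which is across genes of the same 8 libraries. It was -0.069 across 13658 genes. Without morphine replicate 3 it was -0.124 in the constitutive genes, and with a length and GC offset -0.346. Other libraries were not left out in turn for this value. The 15 constitutive genes of lowest GC (36.97% to 49.15%) had a median deviation of 0.24 in morphine replicate 3, and the 15 of highest GC (49.72% to 58.33%) had 0.07.

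Sex was tested beside condition over all 8 libraries. None of the 49 genes passed (edgeR, where 0.00528% of all genes did) and none by DESeq2 (0.138%), and 1 had an unadjusted P under 0.05 (2.04%, against 3.1% of all genes). That gene was Psmb10, at 26.8 CPM in female and 33.1 CPM in male libraries (female minus male log2 difference -0.30 ± 0.12, edgeR unadjusted P = 0.0274, adjusted P = 1.0). All 7 alpha ring genes were below 0 in this comparison, with a median of -0.08. Of the 49 genes 16 were above 0, against 9019 of all 18939 genes, whose median was -0.011. The median deviation of the alpha ring was highest in morphine replicate 3 (0.24) and lowest in morphine replicate 4 (-0.135), both male libraries. The comparison of the sexes includes control replicate 5, whose Y-linked counts stand against its label, and without it no member had an unadjusted P under 0.05. The same held without control replicate 2 or 6 or morphine replicate 4 or 7, and 3 members had one without morphine replicate 3. The interaction of sex and morphine was called in none of the 49 genes by edgeR (0.0% of all genes) or DESeq2 (0.0211%), and 0 members had an unadjusted edgeR P under 0.05, against 1.72% in the whole table. With 2 libraries per sex and group its precision is low.

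Genes that work with the particle were also tested, where edgeR called 0.195% of all genes. A list of 20 held 19S subunits outside the family's symbols (Adrm1 and Shfm1) and partners of the cap. The partners included shuttle factors, deubiquitinases, the segregase Vcp and its cofactors, and assembly factors. Of the 20 genes, 19 were measured and 0 were called by edgeR, 9 being above 0 (9735 of 18939 over all genes). Vcp stood at 87.4 ± 10.3 CPM in control and 79.5 ± 4.63 CPM in morphine libraries (SD, n = 4 each, log2 fold change -0.14 ± 0.102, edgeR adjusted P = 0.632). Of the 5 ubiquitin genes, which include the activating enzyme gene Uba1, none was called and 1 was above 0. Ubb stood at 529 ± 51.1 CPM in control and 514 ± 48.6 CPM in morphine libraries, and Uba1 at 438 ± 71.5 and 362 ± 55.1 CPM (log2 fold change -0.28 ± 0.144, edgeR adjusted P = 0.487).

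The route that raises subunit transcription runs through Nfe2l1, whose product is released from the endoplasmic reticulum by Ngly1 and Ddi2 and binds with small Maf proteins. Of its 7 listed genes none was called by edgeR, where 0.195% of all genes were. Nfe2l1 stood at 406 ± 59.7 CPM in control and 364 ± 31.1 CPM in morphine libraries (log2 fold change -0.16 ± 0.118, edgeR adjusted P = 0.635). Nfe2l2, the stress-responsive relative of Nfe2l1, was low, at 0.59, 0.743, 1.53 and 1.36 CPM in control and 1.69, 2.24, 1.88 and 2.51 CPM in morphine libraries. All morphine libraries were above all control libraries (0.98 ± 0.31, edgeR adjusted P = 0.232, DESeq2 adjusted P = 0.0715), which passed in neither tool. The other genes of the route had overlapping groups, Ddi2 at 74.8 ± 11.1 and 73.2 ± 2.42 CPM and Ngly1 at 28.5 ± 2.52 and 31.3 ± 3.74 CPM.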

How the data were processed

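The authors deposited 1 table of whole-number counts per RefSeq transcript and library, not normalized. Submitters' notes name DESeq2 and mm10. The methods describe Salmon and tximport, but reads recur on several transcripts of a gene, so the counting tool of this table is not given in the sources used here, nor is its use of strand. The design had assumed 1 row per gene, and the transcript with the highest total was taken. Groups came from the labels. Library totals of 31151103 to 47582947 set the counting error, and PCR copies are not marked.

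Counts were TMM-normalized and tested with edgeR 4.0.16 (R 4.3.3, quasi-likelihood, default settings) over all 18939 genes (each counted in 1 library or more), with Benjamini-Hochberg adjustment and a threshold of 0.05. CPM uses TMM library sizes. Exact tests were two-sided over 70 arrangements of log2(CPM + 0.5), or of the percentages themselves for Psmb10 relative to Psmb7. Alternatives were DESeq2 1.42.0, limma 3.58.1 (voom), other factors, filters and offsets, sex in the model, summed transcripts and each library left out. Marker scores in the model were added after seeing the data. Both scores were higher in the morphine group, so these fits separate score and condition poorly. The scripts were tested on simulated data. The family, its lists and the alternatives were chosen with earlier results of these data known.

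Values in every library are given for the 10 members with the lowest unadjusted P for morphine, any member called or with groups that do not overlap, the catalytic and activator subunits, and the members highest (Psmb6) and lowest (Psmb11) per length. Nfe2l2 was singled out after its values were seen, as a listed pathway gene with groups that did not overlap. Values of 1 listed partner gene are not reported here. Replicates are labelled as separate libraries of pooled mice, and no sequencing batch is given, so none was compared. Lengths and GC come from GENCODE, matched for 99.45% of genes, and promoters from RefSeq on GRCm38.p6. A window counts as shared when its 50 bases occur in a transcript of another gene.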

Additional observations from a re-analysis of the deposited data

Results flagged for a closer look

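In 36 groups of 4 libraries (the 17 members given in every library and the median deviation of the constitutive subunits, in each condition), 2 had a library far from the other 3, by Dixon's ratio of gap to range. Chance flags about 1 in 20 groups. Psmb5 stood at 46.3 CPM in control replicate 1, with the other control libraries between 39.8 and 40.4 CPM (ratio 0.916). Psmb9 stood at 0.308 CPM in the same library, with the others between 0.0271 and 0.0717 CPM (ratio 0.841), which are 12 counts against 1 to 3.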

How the results depend on the processing

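No member was called by edgeR or limma-voom under any of the alternatives run, and DESeq2 called 1, Psme4. Over all genes edgeR called 37 and DESeq2 502, and edgeR called 0 without morphine replicate 4 or without morphine replicate 8, 1 without control replicate 1, 77 without control replicate 6 or morphine replicate 3, 110 with sex in the model, 14 with filterByExpr, 15 with 10 counts required in every library, 0 with the choroid plexus score and 1 with the telencephalic score in the model. The median log2 fold change of the family, 0.019, was -0.066 with a length and GC offset (where the median of all genes was -0.044), 0.126 with the choroid plexus score (all genes -0.014) and 0.108 with the telencephalic score in the model (all genes 0.031), and between -0.036 and 0.055 with a library left out. Members above 0 numbered 28 of 49, and 9, 37 and 36 with the offset and the 2 scores. The cause was not tested. Psme4 kept its direction under every alternative.

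Directions that turned were of log2 fold changes that had not passed the test. With the telencephalic score Psme1 was 0.114, Psmb5 0.084, Psmb6 0.108, Psme2 0.189 and Psmb11 -0.703. With the choroid plexus score Psmb8 was 0.394, Psmb5 0.126, Psmb6 0.027, Psme2 0.054 and Psmb11 -1.176. With the offset Psmb7 was -0.074 and Psme3 -0.027. With a library left out Psmb5 lay between -0.084 and 0.003, Psmb6 between -0.081 and 0.026, Psmb7 between -0.045 and 0.067, Psme3 between -0.001 and 0.081, Psmb8 between -1.026 and 0.178, and Psmb9 between -0.241 and 1.092. Psmb8, Psmb9 and Psmb11 had few counts, and their fitted values are no measure of a change.

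No paired analysis was possible because the control and morphine libraries share no replicate number. Depth limits Psma8, Psmb8, Psmb9 and Psmb11, which had under 10 counts in at least 1 library.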
